A study of Homo sapiens with 16 samples.

Results

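The genes described here are 43 human genes that copy DNA or supply the nucleotides for it, listed by symbol, and every row was taken of the deposited intensity table whose symbol is on the list. Of the 43, 39 had a row, and they had 44 rows in all, out of 18190 symbols and 20589 rows in the table. The other 4, GINS2, GINS3, GINS4 and POLA1, had no row under these symbols. Each row was kept separate, and where a gene had 2 rows the brighter one is called its main row. ORC1L, ORC6L and CDC45L are the older symbols, used in the file, of ORC1, ORC6 and CDC45.

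The cells were MCF-10A, a nontransformed human breast epithelial line, grown without serum in medium with insulin and epidermal growth factor (EGF). CP724,714, an inhibitor of the HER2 receptor kinase, was added at 1 µM at 0 hours, and RNA was taken from parallel cultures every 3 hours up to 45 hours. Each of the 16 time points has 1 Illumina human Ref8v2 array, and the 0 hour array is of untreated cells. The series asks how expression moves over time once HER2 signalling is blocked. The medium was changed at the start of treatment and no series without inhibitor was analysed here, so the inhibitor, the fresh medium and time in culture cannot be told apart.

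DNA replication begins at origins that are marked by the origin recognition complex. CDC6 and CDT1 load the MCM2-7 helicase there before S phase, and CDC45 and the GINS complex activate it when S phase starts. Polymerase alpha with primase starts each strand, polymerases delta and epsilon extend it with the sliding clamp PCNA, and the clamp loader RFC places the clamp. FEN1 and LIG1 join the fragments of the lagging strand, and RPA covers single-stranded DNA. Ribonucleotide reductase, thymidylate synthase, thymidine kinase and dUTPase supply the deoxynucleotides, and CAF-1 and UHRF1 pass chromatin marks to the copied strands. Most of these genes are transcribed in dividing cells around the start of S phase, through promoters that bind E2F factors, and are low in resting cells. In a bulk sample, fewer cells in S phase and less RNA per cell cannot be told apart.

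Values are log2 intensities after background correction and quantile normalization, so a difference of 1 is a doubling, and each row is compared only with itself. A row counts as above background where its detection p is under 0.05, and rows above background on at least 3 arrays were tested. The arrays had between 10325 and 10889 of 20589 rows above background. Between 37 and 39 of the 39 main rows were above background on every array. Windows of 4 consecutive time points were compared, 0-9, 12-21, 24-33 and 36-45 hours. The 4 arrays of a window are not replicates of a condition, and their spread also holds the change inside the window. The mean negative control level was between 188 and 199 on the 8 arrays up to 21 hours and between 166 and 185 on the 8 later arrays. The step from 21 to 24 hours thus coincides with a technical shift. By this mean, the rise before 12 hours and the fall after 33 hours each lie inside 1 of these sets. The SD of the negative controls, however, also shifted at these times. It was 41.9 at 9 hours and 35.1 at 12 hours, and 34.3 at 33 hours and 41.9 at 36 hours. By 45 hours it was 34.2, and its part in the results was not tested. The basal epithelial markers KRT5 and KRT15 were above background on all 16 arrays, and KRT14 was above background on 1. Of 11 basal rows tested, 1 rose and 1 fell early, and 5 rose and 1 fell late. Of all rows, 15.1% rose and 14.4% fell early, and 19.3% rose and 18.7% fell late. COL1A1, COL1A2, COL3A1, LUM, PDGFRA and PDGFRB (fibroblast), ESR1 and PGR (luminal), VWF and CDH5 (endothelial) and CD3E and CD79A (leukocyte) were above background on 0 arrays. Of the other markers of these 4 lists, 3 of 12 rows tested rose early (KRT18, PECAM1 and CD14) and 2 rose late (KRT19 and CD14), while KRT19 fell early and KRT18 late, and their part in the results was not tested. The mean log2 level of the 3 leukocyte rows went from between 6.98 and 7.17 in the first window to between 7.86 and 8.05 in the last. The 6 luminal rows tested were well above that, with a mean level between 9.46 and 9.81 over the 4 windows. For the 11 basal rows it lay between 10.24 and 10.68.

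All 42 rows tested passed limma's test for a change over time, and so did all 39 genes by their main row. Of all 11957 rows tested, 54.7% passed. Most of the genes followed a course with 3 levels, low up to 6 hours, high from 12 to 33 hours and lowest from 36 hours on. From 0-9 to 12-21 hours, 31 of 39 genes rose and 0 fell, with a median log2 difference of 0.70, beside 15.1% of all rows that rose and 14.4% that fell. From 24-33 to 36-45 hours, 37 of 39 fell and 0 rose, with a median of -1.25, beside 18.7% of all rows that fell. In 25 of 39 genes every array from 12 to 21 hours was above every array from 0 to 9 hours, beside 11.7% of all rows. In all 37 that fell late, every array of the last window was below every array of the window before, which held for 22.6% of all rows. Between the middle windows, 0 of 39 genes were called by limma at an adjusted p under 0.05, beside 0% of all rows called higher and 0.0251% called lower, and the median log2 difference was -0.07. The unadjusted p of this comparison was under 0.05 for 1 of the 39 genes and for 4.93% of all rows. The median over all rows tested lay between -0.021 and 0.001 in these comparisons and in that of the first and last windows. Quantile normalization forces the arrays to 1 distribution. With median scaling, 2945 of all rows were higher and 1004 lower from 0-9 to 12-21 hours, beside 1808 and 1720 with quantile normalization, and 1644 were higher and 3092 lower from 24-33 to 36-45 hours, beside 2307 and 2233. From 0-9 to 36-45 hours the split was 2839 and 999, beside 1933 and 1799.

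**Figure D1:**
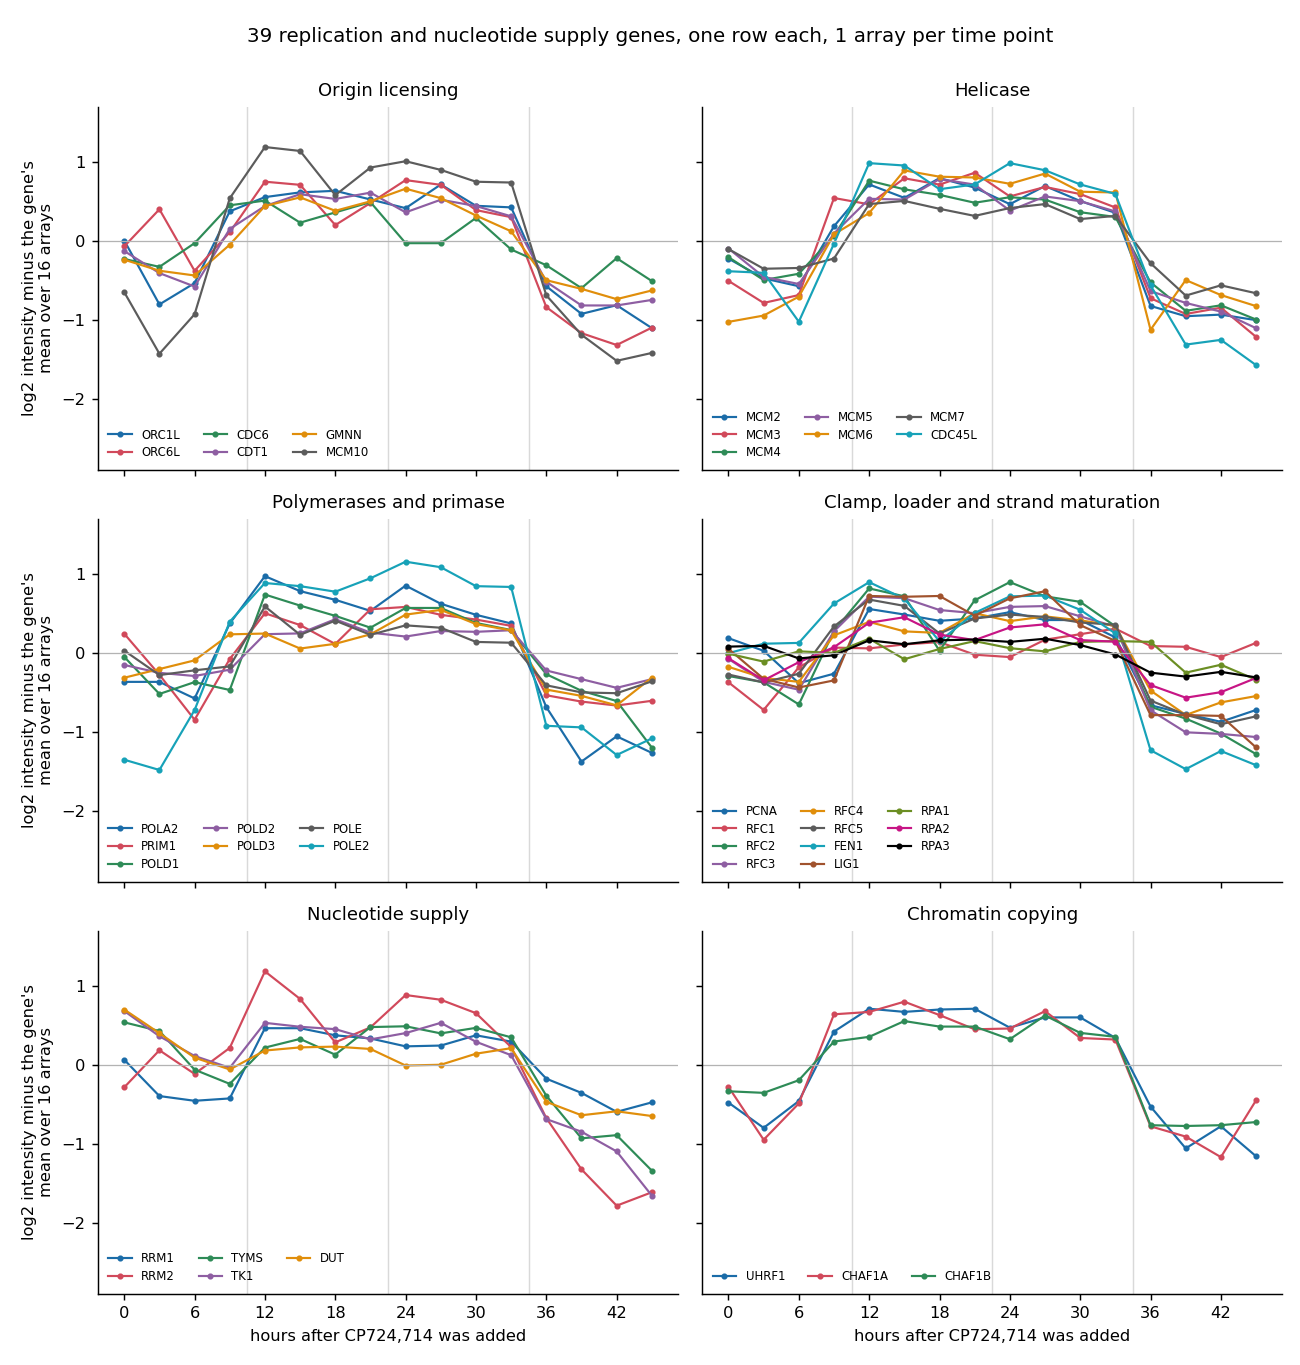
Log2 intensity of the main row of each of the 39 genes minus its own mean over the 16 arrays (vertical axis) against hours after CP724,714 was added (horizontal axis), in a panel for each role, with 1 point per array. Thin vertical lines separate the 4 windows. Nearly all lines are high from 12 to 33 hours and drop at 36 hours, and RFC1 in the clamp and loader panel stays level after 33 hours (log2 difference between the last windows -0.11).

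The promoters of these genes were searched for 3 kinds of short words in the RefSeq sequences of GRCh38.p14, from 250 bases before the transcription start to 50 after it. Promoters were found for 34 of the 39 genes, and MCM4, MCM5, POLD3, RPA2 and RPA3 had none in the table used. The E2F words TTTCCCGC, TTTCGCGC, TTTGCCGC and TTTGGCGC, on either strand, were in 14 of the 34 promoters (41.2%), beside 3.31% of all 35116 promoters. CCAAT, the site of the factor NF-Y, was in 19 (55.9%), beside 34.6%. The words TTTGAA and TTCGAA, known from promoters of mitotic genes, were in 2 (5.88%), beside 16.4%. Of the 20 E2F matches, 15 lay within 100 bases of the start. E2F words overlapped each other in 3 pairs, 2 of them in MCM6 and 1 in MCM2, and a pair of different motifs overlapped once, in MCM7. A match is a description of the letters and not a bound site. The 35116 promoters were not matched to these genes in base composition, and its part in the shares was not tested. Shown here are the 250 bases before the start, 5′ to 3′ on the strand of the gene, with every match that lies wholly inside them in capitals. An E2F word in MCM3 (first base at -4) and a CCAAT in MCM7 (first base at -2) run past the start and are not marked. MCM3, MCM6 and MCM7 hold E2F words and CCAAT boxes, and MCM6 also holds TTCGAA, which reads the same on both strands. CDC45 and RRM2 hold repeated CCAAT boxes and none of the 4 E2F words in this stretch. Other forms of an E2F site were not searched, so a promoter without a word may still hold a site. RFC1 is shown as a gene that was not called in any of the window comparisons, which also held for RPA1. The stretches are chr6:52284743-52284992 (minus strand) for MCM3, chr2:135876444-135876693 (minus strand) for MCM6, chr7:100101398-100101647 (minus strand) for MCM7, chr22:19479670-19479919 (plus strand) for CDC45, chr2:10122489-10122738 (plus strand) for RRM2 and chr4:39366363-39366612 (minus strand) for RFC1.
MCM3: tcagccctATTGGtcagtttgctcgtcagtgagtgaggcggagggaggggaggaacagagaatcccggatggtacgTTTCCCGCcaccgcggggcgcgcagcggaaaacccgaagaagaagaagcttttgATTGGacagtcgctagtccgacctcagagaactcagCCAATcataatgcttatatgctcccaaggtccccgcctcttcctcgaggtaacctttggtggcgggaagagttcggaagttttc
MCM6: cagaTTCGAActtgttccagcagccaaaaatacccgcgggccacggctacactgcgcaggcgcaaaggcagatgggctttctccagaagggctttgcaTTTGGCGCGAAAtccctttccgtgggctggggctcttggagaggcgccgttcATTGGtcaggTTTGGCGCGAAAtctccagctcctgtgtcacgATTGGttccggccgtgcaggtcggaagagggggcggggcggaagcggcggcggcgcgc
MCM7: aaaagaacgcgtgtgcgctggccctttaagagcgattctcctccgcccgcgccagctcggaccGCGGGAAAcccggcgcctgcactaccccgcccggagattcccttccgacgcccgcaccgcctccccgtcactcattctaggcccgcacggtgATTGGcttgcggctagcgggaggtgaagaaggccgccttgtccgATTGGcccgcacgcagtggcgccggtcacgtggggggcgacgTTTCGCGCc
CDC45: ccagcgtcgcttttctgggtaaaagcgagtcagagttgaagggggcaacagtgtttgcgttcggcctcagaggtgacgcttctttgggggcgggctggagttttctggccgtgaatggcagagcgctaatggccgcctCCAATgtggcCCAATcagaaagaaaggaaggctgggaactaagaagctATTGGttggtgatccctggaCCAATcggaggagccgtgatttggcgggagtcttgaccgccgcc
RRM2: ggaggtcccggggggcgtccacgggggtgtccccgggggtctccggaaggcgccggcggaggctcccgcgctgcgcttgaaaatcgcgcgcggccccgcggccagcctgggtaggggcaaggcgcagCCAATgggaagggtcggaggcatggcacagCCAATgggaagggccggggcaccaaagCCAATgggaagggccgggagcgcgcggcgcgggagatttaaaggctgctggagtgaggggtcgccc
RFC1: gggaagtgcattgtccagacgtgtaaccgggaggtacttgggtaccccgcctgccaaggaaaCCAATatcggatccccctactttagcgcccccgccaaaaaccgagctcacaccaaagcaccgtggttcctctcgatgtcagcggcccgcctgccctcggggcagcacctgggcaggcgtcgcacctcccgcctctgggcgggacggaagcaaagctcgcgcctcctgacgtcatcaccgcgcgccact

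The changes of genes with and without an E2F word are given with no test. From 24-33 to 36-45 hours, the median log2 difference was -1.39 for the 14 with a word and -1.19 for the 20 without. The ranges overlapped, from -2.04 to -0.44 and from -2.05 to -0.11. The -0.44 is that of CDC6, whose values are near the background. From 0-9 to 12-21 hours, the medians were 0.85 and 0.62, with ranges from 0.12 to 1.65 and from -0.07 to 1.58.

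The changes were concentrated in a few of the 15 intervals between neighbouring arrays. Single intervals compare 1 array with 1 array and have no test. Between 33 and 36 hours, all 39 genes had a lower value, with a median log2 difference of -0.87, and 25 of them were lower by 1.7-fold or more, beside 3.04% of all rows. For 35 of the 39 this was the largest fall of the series, as it was for 15.6% of all rows. The largest rise was between 6 and 9 hours for 19 genes and between 9 and 12 hours for 18, beside 7.86% and 15.3% of all rows. In these intervals 11 and 6 of the 39 were higher by 1.7-fold or more, beside 1.2% and 4.35% of all rows. From 6 to 12 hours, all 39 were higher, 27 of them by 1.7-fold or more, beside 6.06% of all rows. Before that, 32 of the 39 had a lower value at 3 hours than at 0 hours, beside 50.7% of all rows, with a median of -0.25. After the whole fall, 30 of the 39 were lower by 1.7-fold or more at 45 than at 33 hours, beside 6.68% of all rows. There were 33 genes with a fall of at least 0.5 log2 units over these hours. Of that fall, a median of 75.3% had been reached at 36 hours, with the lowest share in POLD1 (37.3%), TYMS (43.6%), TK1 (45.8%) and RRM2 (49.1%).

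**Figure D2:**
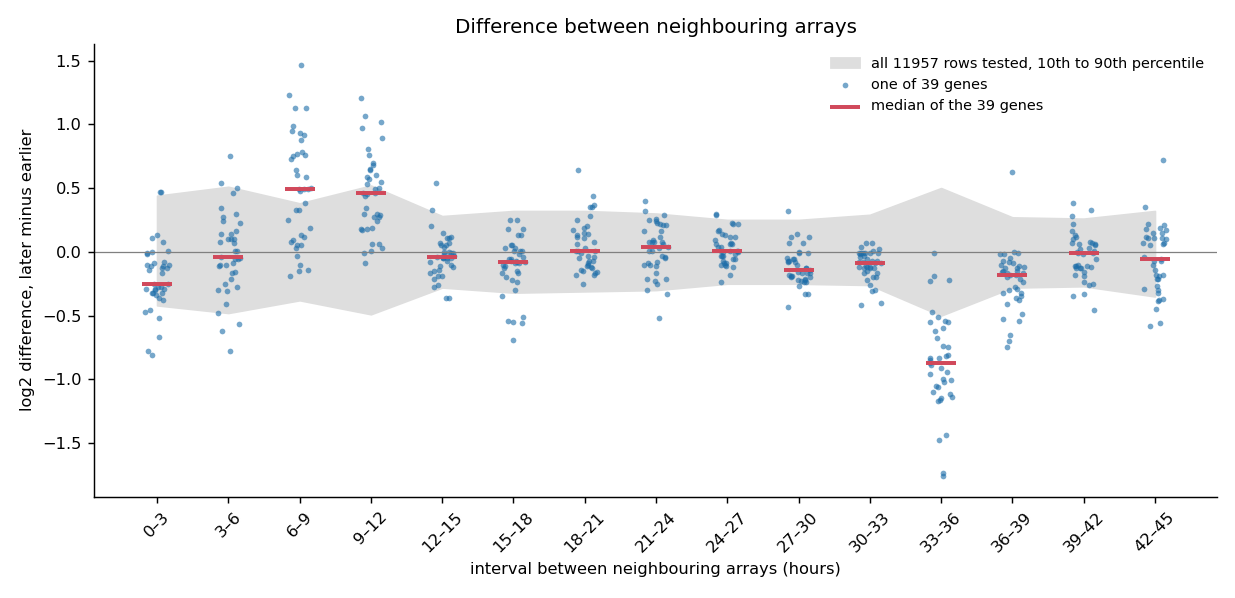
Log2 difference between each pair of neighbouring arrays (vertical axis) for each 3 hour interval (horizontal axis). Points are the 39 genes, red bars their median, and the grey band holds the central part of the distribution over all rows tested, with a share of 1 in 10 left out at each end. The median is 0.49 and 0.46 in the intervals that end at 9 and 12 hours, -0.87 in the one that ends at 36 hours, and lies between -0.25 and 0.04 in the other intervals. The grey band is widest in the intervals that end at 6, 12 and 36 hours. It runs there from -0.48 to 0.51, from -0.49 to 0.52 and from -0.5 to 0.5.

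The 6 genes grouped under origin licensing were all called higher early and lower late, CDC6 from values near the background. Besides genes that mark and license origins, the group holds GMNN, an inhibitor, and MCM10. MCM10, which helps the helicase to start, had the largest fall of the 39 genes. Its log2 intensities were 7.85, 7.07, 7.57 and 9.04 at 0, 3, 6 and 9 hours, and 9.69, 9.64, 9.08 and 9.43 from 12 to 21 hours. They were 9.51, 9.4, 9.25 and 9.24 from 24 to 33 hours and 7.81, 7.31, 6.98 and 7.08 from 36 to 45 hours. The value at 9 hours was already closer to the following window than to the 3 earlier arrays, and no array of the last window reached any of the window before. The rise was 1.58 ± 0.29 (SE, adjusted p = 0.00071) and the fall -2.05 ± 0.29 (SE, adjusted p = 3.4e-05), or 4.15-fold. ORC6L, the smallest subunit of the origin recognition complex, had 8.17, 8.64, 7.86 and 8.35 up to 9 hours and 8.99, 8.95, 8.44 and 8.72 from 12 to 21 hours. From 24 to 33 hours it had 9.01, 8.95, 8.63 and 8.54, and in the last window 7.4, 7.07, 6.92 and 7.14. Its first windows overlapped, at 3 and 18 hours, and its last window was the lowest. The fall was -1.65 ± 0.17 (SE, adjusted p = 1.5e-06). The rise was 0.52 ± 0.17 (SE, adjusted p = 0.03), and it was not called without the array of 0, 6, 12 or 15 hours, where it was 0.49, 0.39, 0.45 and 0.46. ORC1L, the largest subunit of the complex, rose by 0.82 ± 0.19 (SE, adjusted p = 0.0037) and fell by 1.36 ± 0.19 (SE, adjusted p = 3e-05). CDT1, which brings the helicase to origins, had log2 differences of 0.79 ± 0.12 (SE, adjusted p = 0.00019) and -1.13 ± 0.12 (SE, adjusted p = 2.6e-06). GMNN (geminin), its inhibitor, had 0.74 ± 0.11 (SE, adjusted p = 9.2e-05) and -1.03 ± 0.11 (SE, adjusted p = 1.6e-06). CDC6, the other loader of the helicase, was dim and above background on 6 arrays, all 4 of them from 12 to 21 hours plus those of 9 and 30 hours. Its early log2 difference was 0.43 ± 0.16 (SE, adjusted p = 0.045). It was called lower late (adjusted p = 0.033). Its measured late difference of -0.44 is not taken as a size, because it was above background on 1 array of the earlier and 0 of the later window. Leaving out single arrays ended the call of the rise in 11 of 16 cases (0.33 to 0.44, adjusted p up to 0.15) and that of the fall in 5 (adjusted p up to 0.11).

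All 7 helicase genes with a row rose and fell. The 6 MCM2-7 subunits form 1 ring, and their rises ranged from 0.68 in MCM7 to 1.36 in MCM6 and their falls from -0.92 in MCM7 to -1.50 in MCM3. MCM3 had 8.67, 8.39, 8.49 and 9.72 up to 9 hours and 9.64, 9.97, 9.89 and 10.04 from 12 to 21 hours. It had 9.74, 9.86, 9.77 and 9.6 in the third window and 8.45, 8.25, 8.33 and 7.96 in the last. Its 9 hour value lay inside the range of the following window, and the last window was apart from it. The rise was 1.06 ± 0.21 (SE, adjusted p = 0.0012) and the fall -1.5 ± 0.21 (SE, adjusted p = 3.2e-05). MCM2 had 9.09, 8.84, 8.74 and 9.5 in the first window, 10.03, 9.86, 10.11 and 9.99 in the second, 9.78, 10.01, 9.82 and 9.67 in the third and 8.49, 8.36, 8.38 and 8.31 in the last. The last window of MCM2 lay below every earlier array. Its rise was 0.96 ± 0.13 (SE, adjusted p = 6.5e-05) and its fall -1.43 ± 0.13 (SE, adjusted p = 5.7e-07). MCM6 had 5.74, 5.82, 6.06 and 6.85 in the first window and 7.12, 7.66, 7.58 and 7.57 in the second. It had 7.49, 7.62, 7.39 and 7.38 in the third and 5.64, 6.27, 6.08 and 5.94 in the last. It was above background on all 8 middle arrays, on 1 of the first 4 and on 2 of the last 4, so its rise of 1.36 ± 0.2 (SE, adjusted p = 0.00012) and fall of -1.49 ± 0.2 (SE, adjusted p = 2.3e-05) start and end near the background. MCM4 and MCM5 rose by 0.89 ± 0.12 (SE, adjusted p = 4.1e-05) and 0.89 ± 0.13 (SE, adjusted p = 0.00012) and fell by 1.25 ± 0.12 (SE, adjusted p = 5.8e-07) and 1.31 ± 0.13 (SE, adjusted p = 1.2e-06). MCM7 had 2 rows. The bright row, which combines probes, had 0.68 ± 0.08 (SE, adjusted p = 2.1e-05) and -0.92 ± 0.08 (SE, adjusted p = 4.7e-07), and the dim row (above background on 9 arrays) had 0.69 ± 0.34 (SE, adjusted p = 0.14) and -1.71 ± 0.34 (SE, adjusted p = 0.00074), so the 2 rows had the same direction and the dim one was called in the fall alone. CDC45L, which joins the ring when an origin fires, had 8.2, 8.18, 7.56 and 8.55 in the first 4 arrays, 9.57, 9.54, 9.24 and 9.3 in the next 4, 9.57, 9.48, 9.3 and 9.18 in the third window and 8.02, 7.27, 7.33 and 7.01 in the last. Its lowest early array was that of 6 hours, and the lowest array of all was that of 45 hours. Its rise was 1.29 ± 0.2 (SE, adjusted p = 0.00019) and its fall -1.97 ± 0.2 (SE, adjusted p = 1.4e-06), 3.93-fold.

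Of the 7 polymerase and primase genes, 6 rose and all 7 fell. POLE2, the second subunit of polymerase epsilon, had the largest rise of the 39 genes. Its values were 6.59, 6.46, 7.22 and 8.34 up to 9 hours and 8.83, 8.79, 8.72 and 8.89 from 12 to 21 hours. From 24 to 33 hours they were 9.1, 9.03, 8.79 and 8.78, and in the last window 7.02, 7, 6.65 and 6.86. Each array from 6 to 12 hours was above the one before it, and its last window returned to the range of its first. The rise was 1.65 ± 0.28 (SE, adjusted p = 0.00029), 3.15-fold, and the fall -2.04 ± 0.28 (SE, adjusted p = 1.9e-05). POLE, the catalytic subunit of the same enzyme, moved by 0.53 ± 0.09 (SE, adjusted p = 0.00056) and -0.68 ± 0.09 (SE, adjusted p = 2.6e-05). POLA2, a subunit of polymerase alpha, had 9.11, 9.11, 8.9 and 9.85 in the first window and 10.45, 10.26, 10.15 and 10.01 in the second. It had 10.33, 10.1, 9.96 and 9.85 from 24 to 33 hours, and after that 8.79, 8.1, 8.42 and 8.21. It was highest at 12 hours, and its last window was below all earlier arrays. The differences were 0.98 ± 0.19 (SE, adjusted p = 0.00081) and -1.68 ± 0.19 (SE, adjusted p = 2.6e-06). PRIM1, the catalytic primase subunit, had 0.62 ± 0.17 (SE, adjusted p = 0.0091) and -1.06 ± 0.17 (SE, adjusted p = 7.3e-05). Among the polymerase delta subunits, the catalytic POLD1 had 0.88 ± 0.17 (SE, adjusted p = 0.00075) and -1.09 ± 0.17 (SE, adjusted p = 5.8e-05) and the accessory POLD2 0.52 ± 0.05 (SE, adjusted p = 3.7e-06) and -0.6 ± 0.05 (SE, adjusted p = 4.2e-07). The accessory POLD3 had 0.26 ± 0.13 (SE, adjusted p = 0.14), which was not called except without the 9 hour array (0.37, adjusted p = 0.026), and fell by 0.92 ± 0.13 (SE, adjusted p = 2.7e-05).

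**Figure D3:**
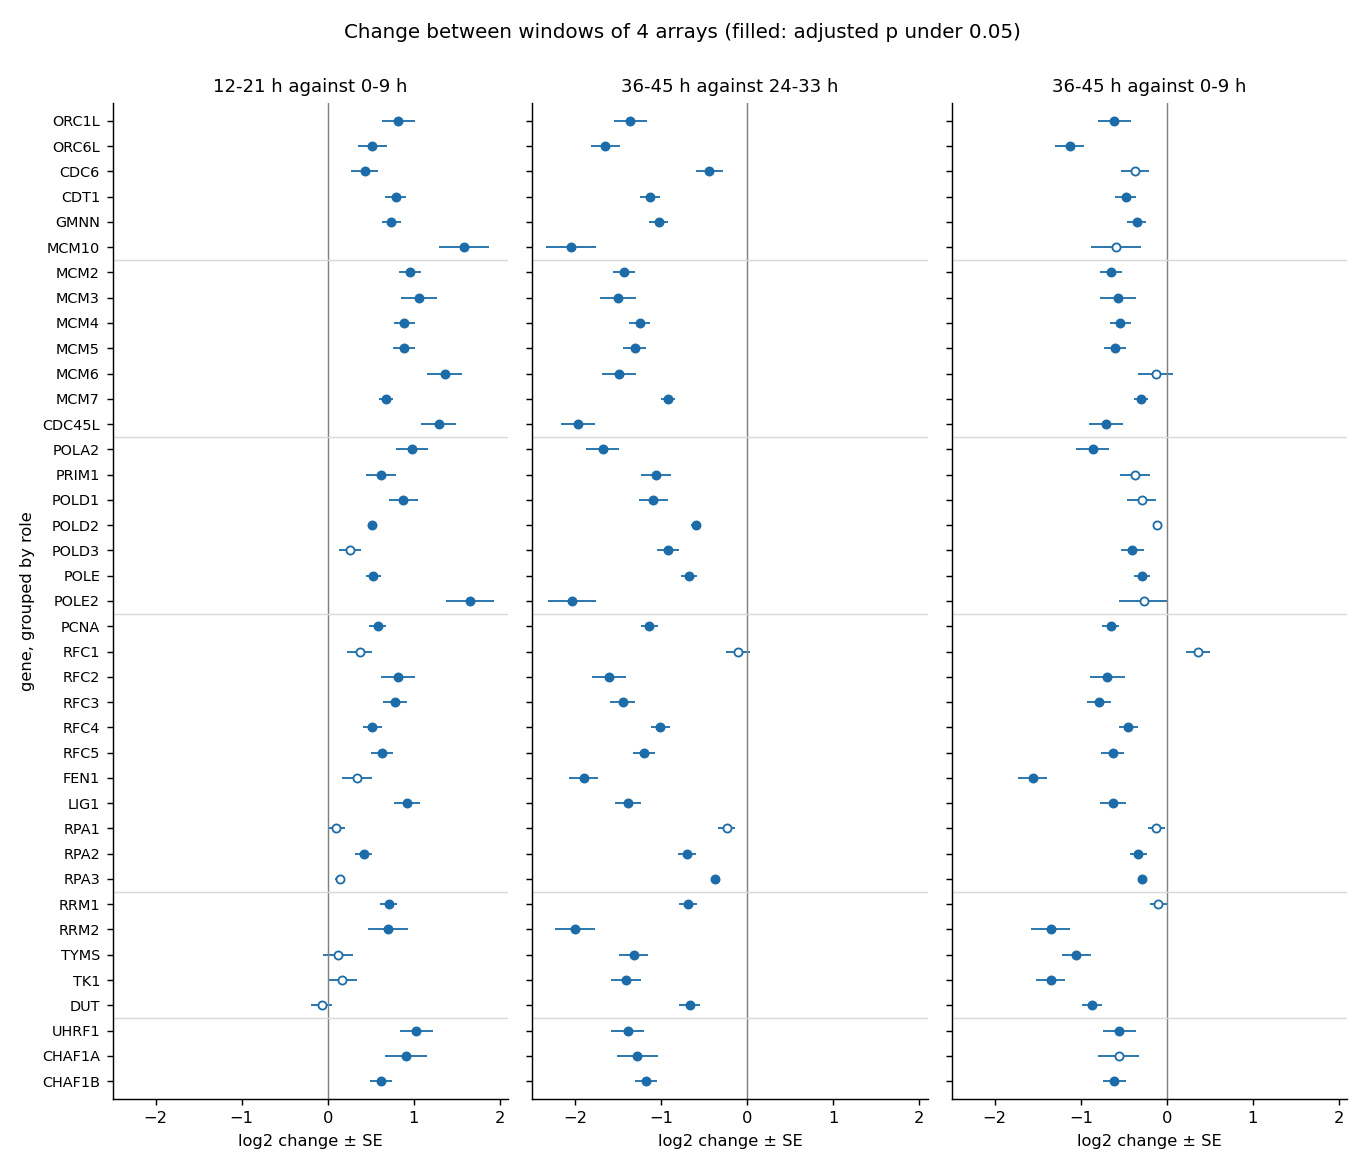
Log2 difference between windows of 4 arrays (horizontal axis, points with SE) for the main row of each of the 39 genes (vertical axis, grouped by role), in 3 comparisons. Filled points have an adjusted p under 0.05: 31 genes to the right of 0 in the left panel, 37 to the left of 0 in the middle (CDC6 from values near the background) and 28 to the left of 0 on the right.

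Clamp, loader, strand maturation and single-strand binding genes were called higher early in 7 of 11 cases and lower late in 9 of 11. PCNA, the sliding clamp, had 0.58 ± 0.1 (SE, adjusted p = 0.00043) and -1.14 ± 0.1 (SE, adjusted p = 3.3e-07) by its bright combined row, and its other row was above background on 0 arrays and was not tested. The 4 small subunits of the clamp loader all rose and fell. RFC2 had 8.49, 8.41, 8.13 and 9.06 up to 9 hours and 9.6, 9.5, 8.81 and 9.45 from 12 to 21 hours. From 24 to 33 hours it had 9.68, 9.5, 9.43 and 9.12, and in the last window 8.1, 7.95, 7.76 and 7.5. The 18 hour array was below that of 9 hours, so the first windows overlapped, and the last window lay below every earlier array. Its rise was 0.82 ± 0.2 (SE, adjusted p = 0.0054) and its fall -1.61 ± 0.2 (SE, adjusted p = 9.4e-06), and a dimmer row of RFC2 had 0.75 ± 0.17 (SE, adjusted p = 0.0028) and -0.92 ± 0.17 (SE, adjusted p = 0.00033). RFC3 had 8.64, 8.35, 8.25 and 8.99 in the first window and 9.43, 9.41, 9.26 and 9.22 in the second. It had 9.3, 9.31, 9.18 and 9.05 from 24 to 33 hours and after that 7.99, 7.71, 7.69 and 7.65, and of the 4 windows only the middle ones overlapped. Its rise was 0.78 ± 0.14 (SE, adjusted p = 0.00064) and its fall -1.45 ± 0.14 (SE, adjusted p = 8.8e-07). The other row of RFC3, a combined one, rose by 0.61 ± 0.19 (SE, adjusted p = 0.024), with overlapping windows, and fell by 1.41 ± 0.19 (SE, adjusted p = 2.2e-05). RFC4 and RFC5 rose by 0.52 ± 0.11 (SE, adjusted p = 0.0019) and 0.63 ± 0.13 (SE, adjusted p = 0.0016) and fell by 1.01 ± 0.11 (SE, adjusted p = 2e-06) and 1.2 ± 0.13 (SE, adjusted p = 2.6e-06), and a further row of RFC5 was above background on 0 arrays. RFC1, the large subunit of the loader, stood apart from the other four. Its values were 6.9, 6.55, 7.09 and 7.34 up to 9 hours and 7.33, 7.38, 7.41 and 7.25 from 12 to 21 hours. It had 7.22, 7.44, 7.51 and 7.58 in the third window and 7.36, 7.35, 7.22 and 7.4 in the last. After the low 0 and 3 hour arrays they stayed between 7.09 and 7.58. The differences were 0.37 ± 0.14 (SE, adjusted p = 0.06) and -0.11 ± 0.14 (SE, adjusted p = 0.61), and without the 9 hour array the first was called (0.50, adjusted p = 0.0084). Whether RFC1 differs from the other subunits was not tested.

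FEN1, the flap nuclease of lagging strand synthesis, had 8.6, 8.72, 8.73 and 9.23 in the first window, 9.5, 9.29, 8.75 and 9.11 in the second, 9.32, 9.33, 9.15 and 8.85 in the third and 7.37, 7.13, 7.36 and 7.18 in the last. Its 9 hour value lay inside the range of the following window, and every earlier array was above the last 4. The rise of 0.34 ± 0.17 (SE, adjusted p = 0.13) was not called, though it was without the 9 or the 18 hour array (0.48 each, adjusted p = 0.024 and 0.037). The fall was -1.9 ± 0.17 (SE, adjusted p = 2.9e-07), 3.74-fold. LIG1, which seals the nicks, rose by 0.92 ± 0.15 (SE, adjusted p = 2e-04) and fell by 1.39 ± 0.15 (SE, adjusted p = 1.8e-06). The 3 subunits of the single-strand binding protein RPA had smaller changes. RPA1, which holds its main DNA-binding domains, had 0.1 ± 0.1 (SE, adjusted p = 0.49) and -0.24 ± 0.1 (SE, adjusted p = 0.066), and without the 36 hour array the second was called (-0.34, adjusted p = 0.0088). RPA2 had 0.42 ± 0.1 (SE, adjusted p = 0.0051) and -0.7 ± 0.1 (SE, adjusted p = 4.2e-05), and RPA3 had 0.14 ± 0.05 (SE, adjusted p = 0.053) and -0.37 ± 0.05 (SE, adjusted p = 2.1e-05). The rise of RPA3 was called without the 0, 3 or 33 hour array (0.16, 0.16 and 0.14, adjusted p = 0.04, 0.044 and 0.039).

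Of the nucleotide supply genes, all 5 fell between 24-33 and 36-45 hours, while 2 of 5, the subunits of ribonucleotide reductase, were called higher before that. RRM2, the small subunit of the enzyme, had 8.01, 8.48, 8.18 and 8.51 up to 9 hours and 9.48, 9.13, 8.58 and 8.77 from 12 to 21 hours. From 24 to 33 hours it had 9.18, 9.12, 8.95 and 8.52, and in the last window 7.62, 6.97, 6.51 and 6.68. It peaked at 12 hours, was lower again at 18 hours and was lowest at 42 hours, and the last 4 arrays lay below all earlier ones. The fall was -2 ± 0.23 (SE, adjusted p = 4e-06), 3.99-fold. Its rise was 0.7 ± 0.23 (SE, adjusted p = 0.03), and it was not called without the array of 0, 6, 12 or 15 hours, where it was 0.60, 0.66, 0.53 and 0.65. RRM1, the large subunit, had a rise of 0.71 ± 0.1 (SE, adjusted p = 9.4e-05) and a fall of -0.69 ± 0.1 (SE, adjusted p = 5.5e-05). TYMS (thymidylate synthase), TK1 (thymidine kinase) and DUT (dUTPase) were highest of the whole series at 0 hours. TYMS had 12.13, 12.02, 11.53 and 11.35 at 0, 3, 6 and 9 hours and 11.81, 11.92, 11.72 and 12.07 in the next window. TK1 had 11.89, 11.57, 11.32 and 11.17 and then 11.74, 11.69, 11.66 and 11.53, and DUT had 10.83, 10.53, 10.22 and 10.07 and then 10.31, 10.35, 10.36 and 10.33. All 3 stepped down at each array to 9 hours, so that their window differences were 0.12 ± 0.17 (SE, adjusted p = 0.64) for TYMS, 0.17 ± 0.17 (SE, adjusted p = 0.51) for TK1 and -0.07 ± 0.12 (SE, adjusted p = 0.7) for DUT, while the 12 hour value was above the 9 hour value in each. Their falls were -1.32 ± 0.17 (SE, adjusted p = 1.4e-05), -1.41 ± 0.17 (SE, adjusted p = 7.2e-06) and -0.67 ± 0.12 (SE, adjusted p = 0.00037).

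The 3 chromatin copying genes rose and fell. CHAF1B, a subunit of the histone chaperone CAF-1, had 8.67, 8.65, 8.81 and 9.3 up to 9 hours and 9.36, 9.56, 9.49 and 9.49 from 12 to 21 hours. It had 9.33, 9.63, 9.41 and 9.36 in the third window and 8.24, 8.23, 8.24 and 8.28 in the last. The last 4 arrays were nearly level, and the drop from 33 to 36 hours was 103% of that from 33 to 45 hours. The differences were 0.62 ± 0.13 (SE, adjusted p = 0.0014) and -1.18 ± 0.13 (SE, adjusted p = 1.8e-06). CHAF1A, its partner subunit, had 0.91 ± 0.24 (SE, adjusted p = 0.0089) and -1.28 ± 0.24 (SE, adjusted p = 0.00046). UHRF1, which brings the maintenance DNA methyltransferase to newly copied DNA, had 1.03 ± 0.19 (SE, adjusted p = 0.00056) and -1.39 ± 0.19 (SE, adjusted p = 1.8e-05).

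The genes did not all begin to rise at the same array. At 9 hours, 25 of the 39 were above all 3 earlier arrays, beside 28.8% of all rows. Those below all 3 were 3 of 39, DUT, TK1 and TYMS, beside 30.3% of all rows. The log2 steps from 6 to 9 hours were 1.47 in MCM10, 1.23 in MCM3, 1.13 in both POLE2 and CHAF1A and 0.99 in CDC45L. POLD1, LIG1, RRM1, PCNA and MCM7 moved by -0.10, 0.09, 0.03, 0.13 and 0.12 in that interval and by 1.21, 1.07, 0.89, 0.81 and 0.68 from 9 to 12 hours. MCM3 and CHAF1A, in turn, moved by -0.09 and 0.03 from 9 to 12 hours. Each of these steps rests on 1 array at each end, and the difference between the genes was not tested.

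**Figure D4:**
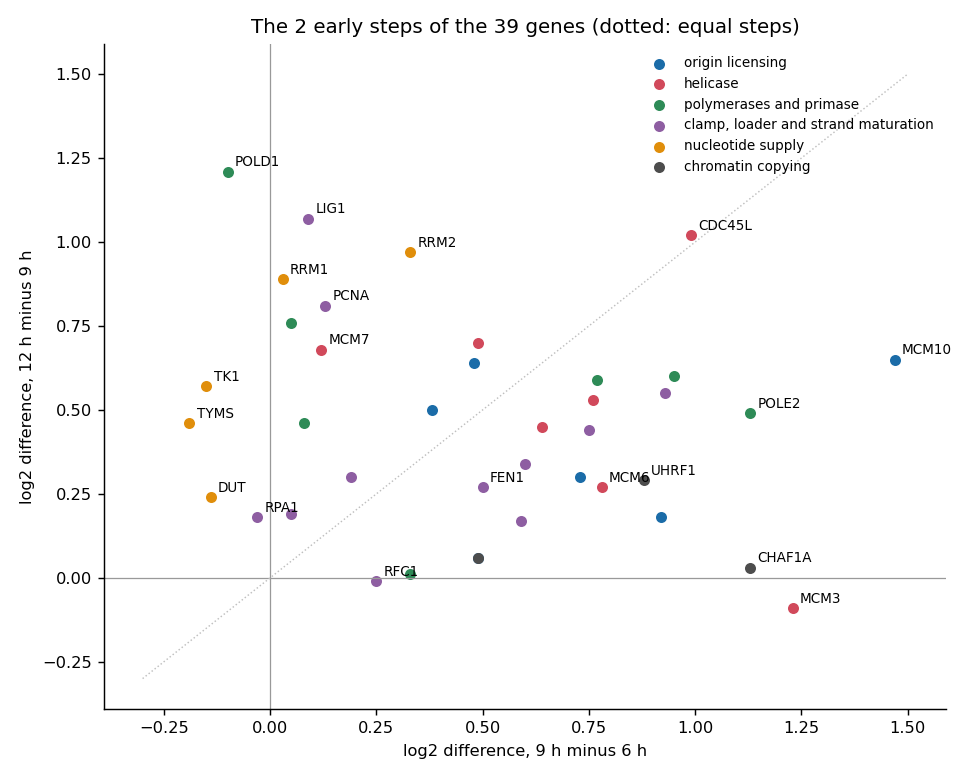
Log2 difference between the 9 and 6 hour arrays (horizontal axis) and between the 12 and 9 hour arrays (vertical axis) for the main row of each of the 39 genes, coloured by role. MCM10, POLE2, CHAF1A and MCM3 lie to the right, with steps of 1.13 to 1.47 at 9 hours, and POLD1, LIG1 and RRM1 lie at the upper left, with steps of 0.89 to 1.21 at 12 hours.

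Inside the high period, the 39 genes at 18 hours had a median log2 difference of -0.04 from the mean of 15 and 21 hours. More than 0.3 below that mean were 6 of the 39 (15.4%), beside 8.82% of all rows. The 6 were RFC2 (-0.67), MCM10 and FEN1 (-0.46 each), ORC6L (-0.39), RRM2 (-0.37) and PRIM1 (-0.34). MCM2 and POLE were highest, at 0.18 above the mean. These values rest on the single 18 hour array, and their difference from all rows was not tested. From 24 to 33 hours, 31 of the 39 had their lowest value at 33 hours, beside 30.8% of all rows, and from 12 to 33 hours the median log2 difference was -0.32. The largest such difference was -0.96 in RRM2. In the last window, 32 of 39 were lower at 45 than at 36 hours, beside 48.3% of all rows, with a median of -0.23.

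At the end of the series most of the genes were below their starting level. From 0-9 to 36-45 hours, 28 of 39 fell and 0 rose, with a median of -0.56, beside 15% of all rows that fell and 16.2% that rose. Over the 42 rows the median was -0.565, and without the 9 hour array it was -0.323. In 21 of 39, the windows did not overlap, beside 12.3% of all rows. At 45 hours, 32 of 39 were below every array of 0 to 9 hours, as were 3279 of all 11957 rows. FEN1 fell most, by 1.56 ± 0.17 (SE, adjusted p = 2.5e-06). RRM2 and TK1 followed, with -1.35 ± 0.23 (SE, adjusted p = 0.00026) and -1.35 ± 0.17 (SE, adjusted p = 1.7e-05), and then ORC6L and TYMS, with -1.13 ± 0.17 (SE, adjusted p = 9.6e-05) and -1.05 ± 0.17 (SE, adjusted p = 0.00018). DUT, POLA2, CDC45L and CHAF1B had -0.87 ± 0.12 (SE, adjusted p = 4.9e-05), -0.86 ± 0.19 (SE, adjusted p = 0.0019), -0.71 ± 0.2 (SE, adjusted p = 0.013) and -0.61 ± 0.13 (SE, adjusted p = 0.0013). The 11 not called were CDC6, MCM10, MCM6, PRIM1, POLD1, POLD2, POLE2, RFC1, RPA1, RRM1 and CHAF1A, with log2 differences from -0.59 in MCM10 to 0.36 in RFC1. POLE2, MCM6 and MCM10 are also among those that rose most before. The 28 calls are those of main rows. The dimmer rows of RFC2 and MCM7 were not called (-0.41, adjusted p = 0.071, and -0.68, adjusted p = 0.14), and that of RFC3 was (-0.58, adjusted p = 0.03). Of the 28 calls, 9 held under every alternative setting and 19 were lost under at least 1. Leaving out a single array ended the call of MCM3 in 12 cases (-0.27 to -0.60, adjusted p up to 0.14), of POLE without 0, 39 or 42 hours (-0.22 to -0.27), of GMNN without 9 or 42 hours (-0.27 and -0.31), of CDC45L and RFC2 without 45 hours (-0.58 each), of RPA2 without 9 or 39 hours (-0.27 and -0.30), of POLD3 without 9, 39 or 42 hours (-0.29, -0.39 and -0.35), and of ORC1L and UHRF1 without 9, 39 or 45 hours (-0.41, -0.59 and -0.53 in ORC1L, -0.30, -0.50 and -0.46 in UHRF1). It added CDC6 without 0 or 3 hours (adjusted p = 0.048 and 0.034), CHAF1A and MCM10 without 3 hours (-0.78 and -0.86), PRIM1 without 6 hours (-0.57) and RFC1, as higher, without 9 hours (0.49). Median scaling left 17 of the 42 member rows called lower, and taking out the step from 21 to 24 hours left 12.

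Other genes of replication and S phase were counted in the same windows. Of 38 rows tested from a list of 54 symbols, 22 rose and 3 fell from 0-9 to 12-21 hours, with a median of 0.50. From 24-33 to 36-45 hours, 28 fell and 2 rose, with a median of -0.78. Of all rows, 15.1% rose and 14.4% fell in the first comparison, and 18.7% fell and 19.3% rose in the second. CDC7, the kinase that fires origins, had log2 differences of 1.45 (adjusted p = 5.7e-05) and -1.81 (adjusted p = 2.7e-06). ASF1B, a histone chaperone, had 0.57 (adjusted p = 0.055) and -1.69 (adjusted p = 1e-05), and CDCA5 (sororin), which holds sister chromatids together, had 0.51 (adjusted p = 0.041) and -1.52 (adjusted p = 5.3e-06). The 2 that rose late had fallen early. POLD4, a small polymerase delta subunit, had -0.67 (adjusted p = 0.00078) and 0.97 (adjusted p = 1.3e-05), and ORC2L, an origin recognition subunit, had -0.47 (adjusted p = 0.0015) and 0.41 (adjusted p = 0.0031). POLE4, a polymerase epsilon subunit, fell both early and late, with -0.29 (adjusted p = 0.008) and -0.3 (adjusted p = 0.0049). These 3 were named after their values were seen.

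The G1/S control genes were counted as well. Of 24 rows tested, 9 rose and 2 fell early, beside 15.1% and 14.4% of all rows. Late, 13 fell and 4 rose, beside 18.7% and 19.3% of all rows. E2F1, a transcription factor of replication genes, had 0.92 (adjusted p = 0.0023) and -1.87 (adjusted p = 1.9e-06), and E2F2, a related factor, had 1.19 (adjusted p = 0.0033) and -1.73 (adjusted p = 8.1e-05). CDC25A, a phosphatase that activates CDK2, had 0.62 (adjusted p = 0.14) and -1.85 (adjusted p = 0.00011). Of 7 housekeeping rows, 1 rose and 1 fell early, and 1 rose and 2 fell late. HPRT1, the purine salvage enzyme of that list, was the one that rose early, by 0.58 (adjusted p = 7.3e-05), and its late difference was -0.71 (adjusted p = 4.1e-06). PPIA, a prolyl isomerase, had -0.38 (adjusted p = 0.1) and -0.19 (adjusted p = 0.41), and B2M, the light chain of MHC class I, had -0.21 (adjusted p = 0.015) and 0.29 (adjusted p = 9e-04).

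Mitosis genes were followed over the same arrays. Of 33 rows tested, 21 rose and 1 fell from 0-9 to 12-21 hours, beside 15.1% and 14.4% of all rows. From 24-33 to 36-45 hours, 32 fell and 0 rose, beside 18.7% and 19.3% of all rows. KNTC2 (NDC80), a kinetochore protein, had 0.68 (adjusted p = 0.028) and -1.65 (adjusted p = 1.9e-05). MAD2L1, a spindle checkpoint protein, had 0.64 (adjusted p = 0.0038) and -1.52 (adjusted p = 8.6e-07), and AURKB, a mitotic kinase, had 0.64 (adjusted p = 0.048) and -1.45 (adjusted p = 0.00011). At 9 hours, 25 of 33 mitosis rows were below all 3 earlier arrays and 1 was above all 3, beside 30.3% and 28.8% of all rows. Relative to each row's mean, the median mitosis row went from 0.28 at 0 hours to -0.44 at 9 hours and 0.69 at 12 hours, and the median replication gene went from -0.15 to 0.09 and 0.54. After 36 hours the median replication gene moved from -0.56 to -0.82 at 45 hours, and the median mitosis row from -0.36 to -1.33. These are descriptions of the lists, and their difference was not tested.

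**Figure D5:**
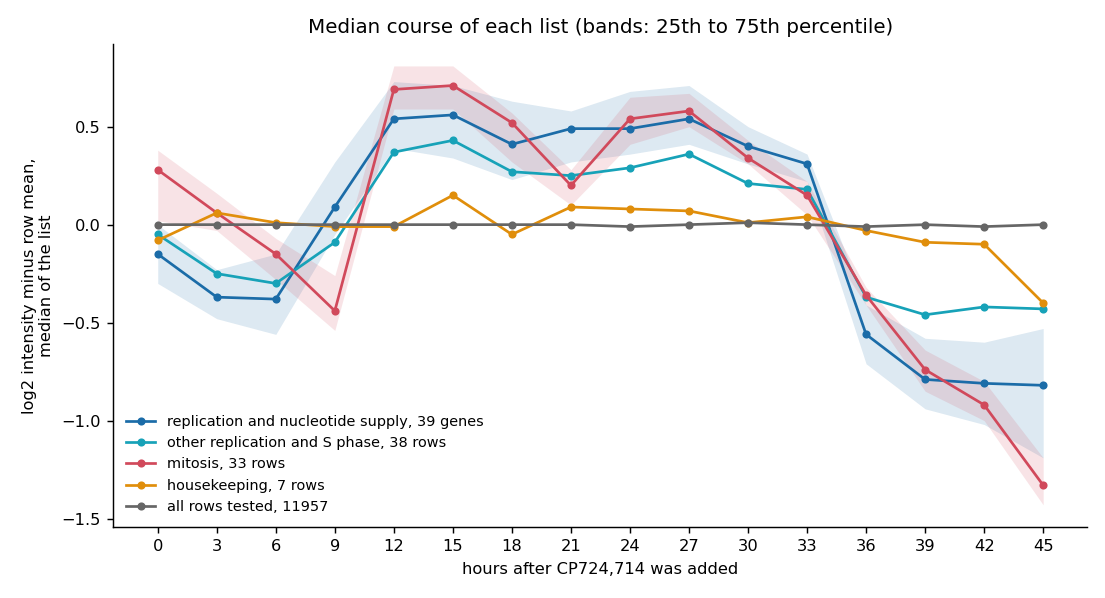
Median over the rows of a list of the log2 intensity minus the row's mean over 16 arrays (vertical axis) against hours after CP724,714 was added (horizontal axis), for 4 lists and for all rows tested, with bands from the 25th to the 75th percentile for the replication and the mitosis genes. At 9 hours the replication median is 0.09 and the mitosis median -0.44, and at 45 hours they are -0.82 and -1.33.

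For 3 of the 4 genes without a row under the listed symbol, the table holds a row under an older name. They are Pfs2 for GINS2, SLD5 for GINS4 and POLA for POLA1, by the synonyms in the RefSeq gene table, and they stay outside the counts above. The GINS subunits, which activate the helicase with CDC45, rose by 1 ± 0.17 log2 units (GINS2; SE, adjusted p = 0.00032) and 1.2 ± 0.16 (GINS4; SE, adjusted p = 4e-05) and fell by 1.92 and 1.97. The row of POLA1, the catalytic subunit of polymerase alpha, went the opposite way. Its values were 9.31, 9.25, 9.08 and 8.94 up to 9 hours and 8.39, 8.57, 8.47 and 8.68 from 12 to 21 hours. The later arrays had 8.73, 8.48, 8.41 and 9.08 up to 33 hours and 8.95, 9.25, 9.26 and 9.28 after that. Every array of the second window was below the first, and the difference was -0.62 ± 0.14 (SE, adjusted p = 0.003), followed by 0.51 ± 0.14 (SE, adjusted p = 0.0076) from 24-33 to 36-45 hours. The probe sequences were not used here, so which transcript this row measures was not tested.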

How the data were processed

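MCF-10A RNA from 16 time points was hybridised to Illumina arrays, 1 array per time point. The authors deposited a table of non-normalized intensity values with a detection p-value for each row and array; their study normalized arrays by quantiles, which these values have not had, and the summary software and any earlier background correction are not given in the sources used here. From the detection p-values, 708 negative control beads were inferred. Of 20589 rows, 19092 hold a single probe and 1497 combine probes, among them 3 rows of the genes described (MCM7, PCNA and RFC3). Intensities were corrected with normexp and an offset of 16 from the negative control levels, quantile normalized and log2 transformed in limma 3.58.1 (R 4.3.3). Testing was limited to the 11957 rows whose detection p was below 0.05 on 3 or more of the 16 arrays. A natural spline of time with 3 degrees of freedom and contrasts between windows of 4 arrays were fitted over all 16 arrays and all rows with eBayes and a trend on mean intensity, and p-values were adjusted over all rows by the Benjamini-Hochberg method (threshold 0.05). The labels name no replicate cultures, so the p-values measure the spread between arrays, which may be technical. The number of arrays limits the precision.

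The genes given with every array value are the 12 with the largest change between consecutive windows and the one with the largest change from 0-9 to 36-45 hours in each role group. RFC1 and POLA1 are given in the same way and were chosen after their values were seen. From each other list the 3 genes with the largest change between consecutive windows are given by their window differences. The genes and lists were chosen with earlier results of these data known. Lists covered other replication, mitosis, G1/S control and housekeeping genes and markers of basal, luminal, fibroblast, endothelial and leukocyte cells. Promoters and older names came from RefSeq tables of GRCh38.p14. The scripts were tested on simulated data. Alternatives were other background corrections, scalings, filters, variance models, time shapes and arrays left out. No probe sequence or probe position was used here.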

Additional observations from a re-analysis of the deposited data

Results flagged for a closer look

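Single arrays stood apart from the other 3 of their window in 8 of 168 groups of 4 arrays, by the gap to the nearest array as a share of the group's range. Chance flags about 1 in 20 groups, which is 8.4 here. In the first window, RRM1 was high at 0 hours (log2 intensity 12.11 against 11.59 to 11.65, share 0.887), RFC5 was high at 9 hours (10.77 against 10.06 to 10.17, share 0.856) and the dim row of MCM7 was high at 9 hours (7.43 against 5.74 to 5.89, share 0.913). From 12 to 21 hours, the dim row of MCM7 was low at 18 hours (5.98 against 7.15 to 7.36, share 0.855), POLD2 was high at 18 hours (14.67 against 14.48 to 14.50, share 0.91) and LIG1 was low at 21 hours (9.46 against 9.70 to 9.71, share 0.951). ORC1L was high at 27 hours (9.33 against 9.03 to 9.06, share 0.917), and LIG1 was low at 45 hours (7.79 against 8.19 to 8.20, share 0.965).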

How the results depend on the processing

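The rise was called for 33 rows and for 29 (without the 6 hour array) to 37 (without the 9 hour array) with 1 array left out, and the late fall for 40 rows and for 39 to 41. CDC6 and MCM6 were not tested with the filter on all 16 arrays. Of the 31 genes called in the rise, 26 were called under every alternative in which they were tested, and ORC6L, CDC6, PRIM1, RRM2 and CHAF1A were not. Of the 37 called in the late fall, 36 were, and CDC6 was not. No gene called changed direction. A change over time was called for 42 rows, for 41 to 42 with 1 array left out, and for 5 with a straight line in time, which cannot follow a rise and a fall. The comparison of the last window with the first called 29 rows lower, 22 to 31 with 1 array left out, 17 with median scaling, 19 with only the 8 arrays compared and 12 without the step between 21 and 24 hours. It called 0 rows higher, 0 to 1 with 1 array left out, and 1, RFC1, with median scaling, with the filter on all 16 arrays, without the intensity trend, and for 0 and 3 against 42 and 45 hours. The cause was not tested. With the rows under older symbols added, an alternative chosen after seeing the data, POLA1 made 1 row lower early and 1 row higher late. Without background correction the median changes of the member rows were 0.541, -0.932 and -0.394 for the rise, the fall and the last against the first window, beside 0.692, -1.261 and -0.565, and without the 9 hour array the last of these was -0.323. Dim rows near the background, CDC6, MCM6 and the dim MCM7 row, limit what can be said of their lowest levels. No paired analysis was possible because the labels give 1 sample per time point and no shared replicate numbers.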
